A study of Homo sapiens with 8 samples.

Results

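RBFOX2 is an RNA-binding protein that controls alternative splicing, and the transcript described here is its own. The RBFOX2 gene lies on chromosome 22 from 35738736 to 36028824 (GRCh38, RefSeq span of GRCh38.p14, 290089 nt), and it is read from the minus strand, so its 5′ end is at the higher coordinate. Its peaks were taken as all called peaks on the minus strand of chromosome 22 with their midpoint inside this span. There were 840 of them among the 1118316 called peaks of the series, with 209, 208, 218 and 205 in replicates 1 to 4 (mean 210.0 ± 5.60, SD, n = 4). They made up 0.0751% ± 0.00223 of the called peaks of a list (SD, n = 4).

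RBFOX2 belongs to a family of 3 proteins (RBFOX1, RBFOX2 and RBFOX3) that share a single RNA recognition motif, which binds the RNA word UGCAUG. Bound downstream of an alternative exon, RBFOX proteins mostly promote its inclusion, and bound upstream they mostly promote skipping. RBFOX proteins are also known to bind their own pre-mRNAs and to cause skipping of an exon that encodes part of the RNA recognition motif, a form of autoregulation. The word itself was not searched for in the peaks, since no genome sequence was used here.

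The assay was eCLIP, in which RBFOX2 is fixed to its RNA targets by ultraviolet light and pulled down with an antibody (IP), and the recovered RNA fragments are read by sequencing and set against the input. The cells were HEK293T, an established human embryonic kidney line, and the labels name no treatment other than crosslinking at 254 nm and 400 mJ per square centimetre. The 4 IP libraries and 4 input libraries are numbered 1 to 4, and each deposited list of peaks compares one IP with the input of the same number, which was 2% of the same sample. The labels do not say whether the replicates came from separate cultures, so p-values measure only the spread between these samples, which may be technical.

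Each peak carries a log2 fold of IP over input and the −log10 of a p-value, both given by the authors. The number of called peaks per list ran from 267691 to 288305. Read counts were not used here, so depth is unknown and no counting interval can be given for a fold. Of 6 marker genes listed for HEK293T, 4 (VIM, NEFM, NEFL and PAX2) had called peaks in all 4 lists. The overlapping spans of KRT8 and KRT18 shared 1 called peak, on the plus strand and in 1 list. For all markers the strand with more called peaks was used, whichever strand the gene is read from. Of 6 markers of blood, liver, fibroblasts and endothelium, 5 had none, and COL1A1 had 12, 9, 9 and 1.

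Enriched peaks were those that reached both a log2 fold of 3 and a −log10 p of 3. RBFOX2 held 6 of them, against a background of 0.818% of all called peaks (0.861%, 0.848%, 0.789% and 0.775% in replicates 1 to 4), and all 6 lay within 978 nt near the 3′ end of the gene. This cluster ran from 35755865 to 35756842, between 272 and 273 kb from the 5′ end and 17.1 kb from the 3′ end, and covered 0.337% of the span. It held 24 of the 840 called peaks, in 4 regions found in every list and 2 found in 1 list. Its limits were drawn after the values were seen, so its folds are a description and no test of the cluster as a whole is given. The log2 fold was above 1 in 23 of the 24 peaks, and the lowest was 0.74. Of the 12 peaks of the gene with a log2 fold of at least 3, 11 were in the cluster. Over the cluster, the mean log2 fold was 3.17, 2.96, 2.45 and 2.66 in replicates 1 to 4, so every list was high there.

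**Figure D1:**
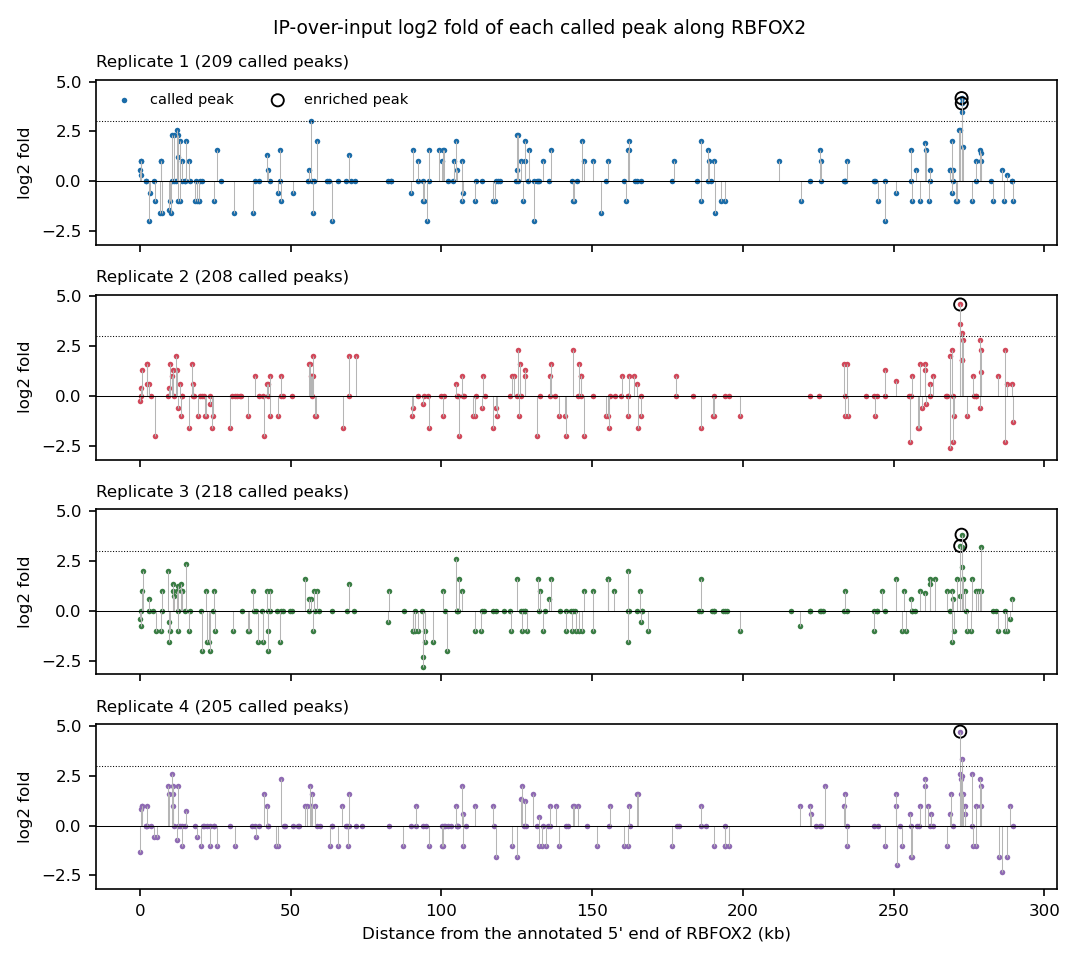
The log2 fold of IP over input (vertical axis) of each called peak of RBFOX2 against its distance in kb from the annotated 5′ end (horizontal axis), 1 panel per replicate. Circles mark the 6 enriched peaks, which all lie near 272 kb, and the dotted line marks a log2 fold of 3.

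The enriched peaks fell in 2 regions of the cluster. In the one nearer the 5′ end (35756673 to 35756842, 170 nt), the log2 fold was 2.58, 4.59, 3.25 and 4.70 in replicates 1 to 4, and the −log10 p was 2.83, 6.10, 3.92 and 6.38. Replicates 2 and 4 were the high ones, and replicate 1 fell short of both limits. Relative to the commonest fold of each list, the ratios behind these values were 6, 24, 9.5 and 26. The mean log2 fold was 3.78 ± 1.03 (SD, n = 4, 95% limma interval 2.63 to 4.93), with a limma adjusted p of 0.00767.

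The other region (35756177 to 35756312, 136 nt) had log2 folds of 4.17, 3.17, 3.81 and 3.32 and −log10 p values of 4.12, 1.93, 3.29 and 1.93. Here replicates 1 and 3 were high and held the enriched peaks, while replicates 2 and 4 passed the limit on the fold and missed the limit on p. Its mean log2 fold was 3.62 ± 0.46 (SD, n = 4, 95% limma interval 2.90 to 4.33, limma adjusted p = 0.00435). In replicate 1 the region was split into 2 enriched peaks, one of 56 nt with a log2 fold of 3.91 and one of 80 nt with 4.17. Replicate 2 also had 2 peaks there, one of 36 nt with 3.17 and one of 63 nt with 1.81. The folds given for a region are those of the peak with the highest −log10 p in each list. With all peaks weighted by length, the mean was 3.31 here and 3.25 in the region from 35756673, so their order was reversed. No region of RBFOX2 was enriched in all 4 lists, and the region from 35756673 was enriched in 3. Of the 45 regions of the gene with a called peak in all 4 lists, these 2 had an enriched peak in at least 2 lists, and 1 had one in at least 3. Over such regions of the whole series, 5.6% had an enriched peak in at least 1 list, 3.04% in at least 2 and 1.84% in at least 3.

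The enriched peaks of replicates 2 and 4 in the first of these regions were nearly superposed. They ran from 35756682 to 35756776 in replicate 2 and from 35756673 to 35756776 in replicate 4, so both ended on the same nucleotide. The enriched peak of replicate 3 ran from 35756676 to 35756772. Replicate 1 had a single called peak there, of 142 nt (35756679 to 35756820). It also covered most of the stretch in which the other lists had a further, separate peak, with log2 folds of 3.59, 0.74 and 2.58 in replicates 2, 3 and 4. Just outside the cluster on its 5′ side, replicate 1 alone had a peak of 24 nt (35756955 to 35756978) with a log2 fold of 2.58.

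The other 2 recurrent regions of the cluster lie on the 3′ side. A region of 78 nt (35756099 to 35756176) directly abutted the one from 35756177. It had log2 folds of 3.46, 1.81, 2.17 and 2.50 in replicates 1 to 4 (mean 2.49 ± 0.71, SD, n = 4, limma adjusted p = 0.0104). Replicate 1 was again the highest there, and no list reached a −log10 p of 3. A region of 79 nt (35755865 to 35755943) had log2 folds of 1.74, 2.81, 1.59 and 1.58 (mean 1.93 ± 0.59, SD, n = 4, limma adjusted p = 0.0153). Replicate 2 stood above the other lists, which lay close together.

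**Figure D2:**
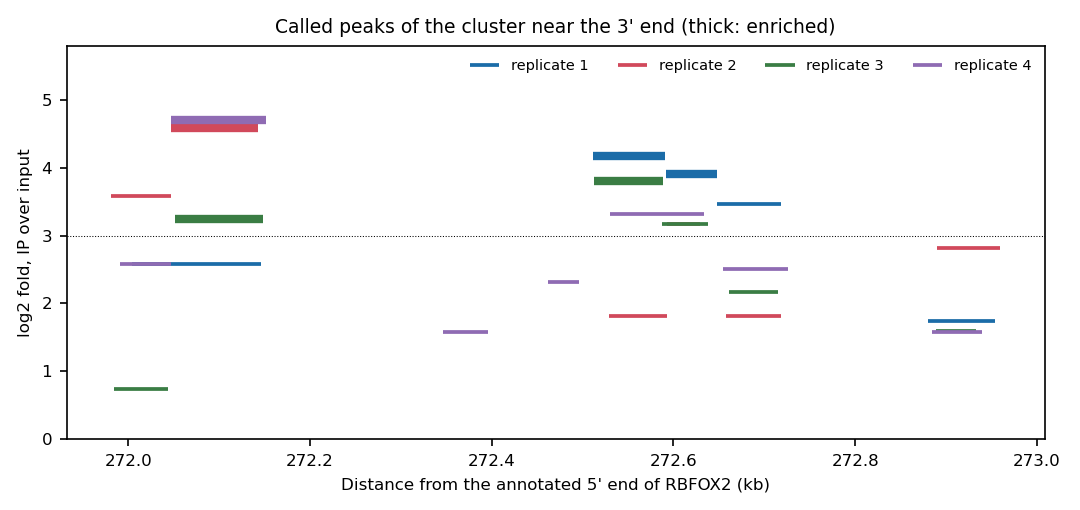
Called peaks of the cluster in the 4 replicates, drawn as bars from their start to their end (horizontal axis, kb from the annotated 5′ end of RBFOX2) at their log2 fold of IP over input (vertical axis). Thick bars are the 6 enriched peaks. The enriched bars of replicates 2, 3 and 4 stack near 272.1 kb, those of replicates 1 and 3 near 272.6 kb, and a bar of replicate 2 with a log2 fold of 3.17 is hidden behind one of replicate 3.

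The share of enriched peaks on RBFOX2 was close to that of the rest of the series. RBFOX2 had 2, 1, 2 and 1 enriched peaks in replicates 1 to 4, or 0.711% ± 0.262 of its called peaks (SD, n = 4). Over all other peaks the share was 0.818% ± 0.0425 (SD, n = 4). The difference was −0.108 ± 0.256 percentage points (SD, n = 4), with RBFOX2 higher in replicates 1 and 3 and lower in replicates 2 and 4 (exact two-sided sign-flip permutation p = 0.5, where the smallest p that 4 replicates allow is 0.13). The difference was within the spread between replicates. With the limit on p dropped, the difference turned to 0.0300 percentage points (exact permutation p = 0.875). With a log2 fold of at least 1 in place of 3, it was −0.400 percentage points (exact permutation p = 0.13, the smallest possible). With a −log10 p of at least 5 it was −0.210, and against other minus-strand peaks of chromosome 22 it was −0.207.

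The mean fold of the gene was also near that of the series. The mean log2 fold of the RBFOX2 peaks was 0.26, 0.13, 0.10 and 0.26 in replicates 1 to 4, against 0.20, 0.18, 0.13 and 0.17 for all other peaks. RBFOX2 was higher in replicates 1 and 4 and lower in replicates 2 and 3, by 0.02 ± 0.07 on average (SD, n = 4, exact two-sided sign-flip permutation p = 0.625). Without replicate 4 the mean difference turned to −0.00534, and without the cluster to −0.0573. Replicates 1 and 4 also had more peaks with a −log10 p of 0. On RBFOX2 their share was 78.0%, 63.9%, 67.0% and 80.0% in replicates 1 to 4, and in the whole lists it was 80.2%, 66.3%, 68.2% and 81.8%. Any link of this share to the difference of the means was not tested. In the region from 35959481, a ratio of 2.5 to the commonest fold carried a −log10 p of 0.34 in replicate 1 and 0.54 in replicate 3. The same fold can also carry different p-values within a list. In replicate 4, a log2 fold of 1.58 carried a −log10 p of 0.20 in the region from 35755865 and 0.54 in that from 35756429. Whether the scale of p differs between lists was not tested, though it would bear on which replicates pass a limit. With a limit of 3.1 in replicates 2 and 3, enriched peaks still numbered 1.5 per list. Against the other minus-strand peaks of chromosome 22, the RBFOX2 mean was lower in 4 of 4 replicates, with a mean difference of −0.14 (exact permutation p = 0.13).

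Most RBFOX2 peaks showed no enrichment. Of the peaks of a list, 37.0% ± 2.47 sat at the commonest log2 fold, which is near 0, against 41.8% ± 0.955 in the whole lists (SD, n = 4 for both). A log2 fold above 0.5 was found for 37.3%, 34.6%, 33.0% and 36.1% of RBFOX2 peaks in the 4 lists (35.3% ± 1.86), against 33.1%, 31.6%, 29.8% and 31.2% in the whole lists (31.4% ± 1.35, SD, n = 4 for both). RBFOX2 was thus higher in every list, a difference that was not tested. A log2 fold below −0.5 was found for 26.32%, 27.88%, 27.98% and 23.41% of RBFOX2 peaks in the 4 lists (26.4% ± 2.13). In the whole lists the share was 23.13%, 23.53%, 24.27% and 23.41% (23.6% ± 0.488, SD, n = 4 for both). The share of low folds was thus also higher on RBFOX2 in replicates 1 to 3, and almost equal in replicate 4. RBFOX2 folds were therefore not shifted upward alone, and this difference was not tested either. The lowest fold of the gene was −2.0, −2.58, −2.81 and −2.32 in replicates 1 to 4. The peaks were short, with a median length of 43, 42.5, 46 and 42 nt and a range from 2 to 243 nt over the 4 lists. Together they covered 3.46% ± 0.0780 of the span (SD, n = 4).

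The called peaks kept to the annotated ends and strand of the gene. The outermost peaks began 33 nt inside the 5′ end and 349 nt inside the 3′ end. The nearest minus-strand peaks beyond the gene were 198 kb past the 5′ end and 236 kb past the 3′ end. On the plus strand the span held 0 called peaks in every list, and so no ratio between strands could be tested. Over the series, 99.4% of the 809251 called peaks that lay in a single gene span of known strand were on the strand of that gene, so this is not particular to RBFOX2. The span also holds 2 annotated pseudogenes, RPL41P3 and NDUFA9P1, with 7 and 5 of the 840 peaks, and none of these was enriched.

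Merging called peaks that overlapped by at least 1 nt gave 518 regions on RBFOX2. Of these, 354 (68.3%) had a peak in 1 list, 82 in 2, 37 in 3 and 45 (8.69%) in all 4. In the whole series 68.3% of the 701159 regions had a peak in 1 list and 7.06% in all 4. For each of the 45 recurrent regions and list, the log2 fold of the peak with the highest −log10 p was used, and at ties the highest fold. This choice favours high folds where a list had several peaks in a region. Their mean log2 fold ran from −0.68 to 3.78, with a median of 0.65, against 0.50 for the 49493 recurrent regions of the series.

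In a limma fit of the whole table, 10 of the 45 RBFOX2 regions (22.2%) were called higher than 0, with an adjusted p (Benjamini-Hochberg) that did not exceed 0.05. Over all tested regions this call was made in 21.1%, so the share on RBFOX2 was near the background. With the mean fold of all peaks of a region, weighted by their length, the same 10 were called, against 19.3% of all regions. No RBFOX2 region was called lower than 0 by limma, against a background of 1.81%. At an unadjusted limma p under 0.05, 15 RBFOX2 regions were above 0 and 0 below. These 15 were 33.3% of the regions of the gene, against 37.2% of all tested regions in either direction, so their share was not above the background. When replicate 1, 2 or 4 was left out, limma made 0 calls in the whole series, and so 0 on RBFOX2. In these fits 17, 15 and 13 RBFOX2 regions had an unadjusted p under 0.05 (32.7%, 27.3% and 23.2%), against 26.7%, 27.4% and 27.2% of all regions tested. When replicate 3 was left out, limma called 2378 regions higher in the series and 1 on RBFOX2, the region from 35756177 (adjusted p = 0.0487). Over these 4 fits the adjusted p of the 10 regions lay between 0.0487 and 0.114. Tested against a log2 fold of 1 instead of 0, only the 2 regions with enriched peaks were called (4.44%), against 5.6% of all regions tested, which is near the background.

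**Figure D3:**
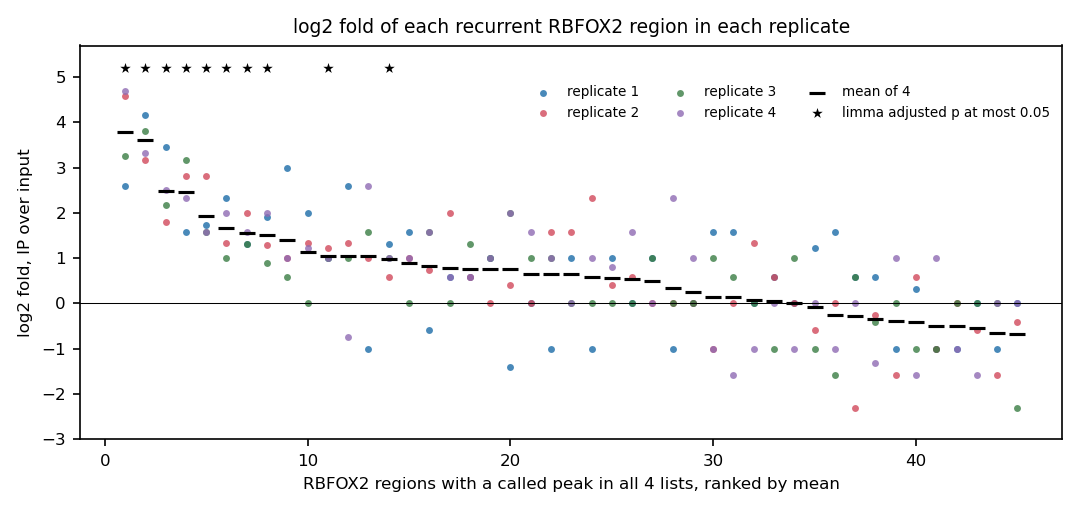
The log2 fold of IP over input (vertical axis) in each replicate for the 45 RBFOX2 regions with a called peak in all 4 lists, ranked by their mean (black bars). Stars mark the 10 regions with a limma adjusted p of at most 0.05, and the 2 at the left, with means of 3.78 and 3.62, are the only ones in which all 4 replicates lie above 2.5.

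Of the 10 regions, 4 were those of the cluster and 2 more lay within 12 kb of the 3′ end. The larger of these, a region of 237 nt from 35749911 to 35750147 (11.3 kb from the 3′ end), had log2 folds of 1.58, 2.81, 3.17 and 2.32 (mean 2.47 ± 0.69, SD, n = 4, limma adjusted p = 0.0101). Replicate 3 was highest and replicate 1 lowest, and no list reached a −log10 p of 3. The stretch that directly abutted it on its 3′ side (35749761 to 35749910) had 1.00, 1.22, 1.00 and 1.00 (mean 1.06 ± 0.11, SD, n = 4, limma adjusted p = 0.0287). Its highest −log10 p in any list was 0.65. Folds in this table move in steps set by small whole-number ratios, so identical values recur between lists.

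The remaining 4 regions were spread along the gene. One lay 29.6 kb from the 3′ end (35768254 to 35768395), with log2 folds of 1.91, 1.28, 0.89 and 2.00 (mean 1.52 ± 0.53, limma adjusted p = 0.0238). A second lay 10.8 kb from the 5′ end (36017909 to 36018066), with 2.32, 1.32, 1.00 and 2.00 (mean 1.66 ± 0.61, limma adjusted p = 0.0224). In both, replicates 1 and 4 were the high ones. The other two, from 35959481 to 35959550 and from 35986515 to 35986623, had means of 1.56 ± 0.32 and 0.98 ± 0.30, with limma adjusted p-values of 0.0148 and 0.0466 (SD, n = 4 throughout). None of the 4 reached a −log10 p of 3 in any list. The highest value was 1.72 in the region from 35768254 and 0.66 in that from 36017909. It was 0.66 and 0.34 in those from 35959481 and 35986515. These limma calls thus rest on agreement between lists.

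Among the 10 highest means, 2 regions did not pass. The region from 35972095 to 35972165, 56.7 kb from the 5′ end, had log2 folds of 3.0, 1.00, 0.59 and 1.00 (mean 1.40 ± 1.09, SD, n = 4), with replicate 1 the highest (limma adjusted p = 0.0999). The region from 35900950 to 35901176 had 2.00, 1.32, 0.00 and 1.22 (mean 1.14 ± 0.83, limma adjusted p = 0.103), with replicate 3 at the commonest fold of its list.

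At the low end the values were smaller and less regular. The 5 lowest means lay between −0.68 and −0.50, and their −log10 p was 0 in every list. Every negative fold used for the 45 regions had a −log10 p of 0. This 0 therefore says nothing on how far a fold lies below 0. The lowest region (35934743 to 35934895) had log2 folds of 0.00, −0.41, −2.32 and 0.00, so replicate 3 alone was low (mean −0.68 ± 1.11, limma adjusted p = 0.359). In the next (35842626 to 35842707) replicates 1 and 2 were low, at −1.0 and −1.58, and replicates 3 and 4 were at 0.00 (mean −0.65 ± 0.78). In 12 of the 45 regions all 4 folds were above 0.5, and in 0 all 4 were below −0.5. The share over all recurrent regions was not computed for these counts. Over the series limma called 21.1% of such regions higher and 1.81% lower, so higher calls outnumbered lower ones there too. Across the 45 regions, Spearman's rho between 2 lists lay between 0.156 and 0.596 (mean 0.420 over the 6 pairs), against a mean of 0.468 over all recurrent regions of the series. These values are across regions of the same 4 lists, and regions are not independent replicates.

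Peaks were unevenly spread along the gene. In 10 bins of 29.0 kb counted from the 5′ end, the first held the most called peaks, 45, 38, 39 and 37 in replicates 1 to 4. The last held 31, 32, 34 and 30, and the eighth the fewest, 6, 2, 7 and 7. The longest stretch with no called peak in any list was 12818 nt, between 199 and 212 kb from the 5′ end. Recurrent regions were most numerous in the last bin, with 12, followed by the first, with 8, and the eighth held 1.

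The folds were distributed differently from the peaks. Called peaks of the last bin averaged a log2 fold of 0.68, 0.76, 0.76 and 0.84 in the 4 lists (0.76 ± 0.07, SD, n = 4). Those of the first, which were more numerous, averaged 0.12, 0.13, 0.08 and 0.26. In every list the last bin was higher than each of the other 9. These had means between −0.13 and 0.25, and in several of them replicates lay on both sides of 0. The bin was singled out after its values were seen, so no test is given. Without the peaks of the cluster, its mean was 0.20, 0.26, 0.39 and 0.29.

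The part of the gene beyond 145 kb from the 5′ end held fewer called peaks than the first 145 kb, 85 ± 5.23 against 125.0 ± 4.97 (SD, n = 4). Its mean log2 fold was higher in 4 of 4 replicates, at 0.42, 0.22, 0.39 and 0.40 against 0.16, 0.07, −0.09 and 0.17. The difference was 0.28 ± 0.14 (SD, n = 4, exact two-sided sign-flip permutation p = 0.13, the smallest that 4 replicates allow). Without the first and last bins it was 0.07 and positive in 2 of 4 replicates (exact permutation p = 0.75), and without the cluster it was 0.09 and positive in 3 of 4 (exact permutation p = 0.375).

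**Figure D4:**
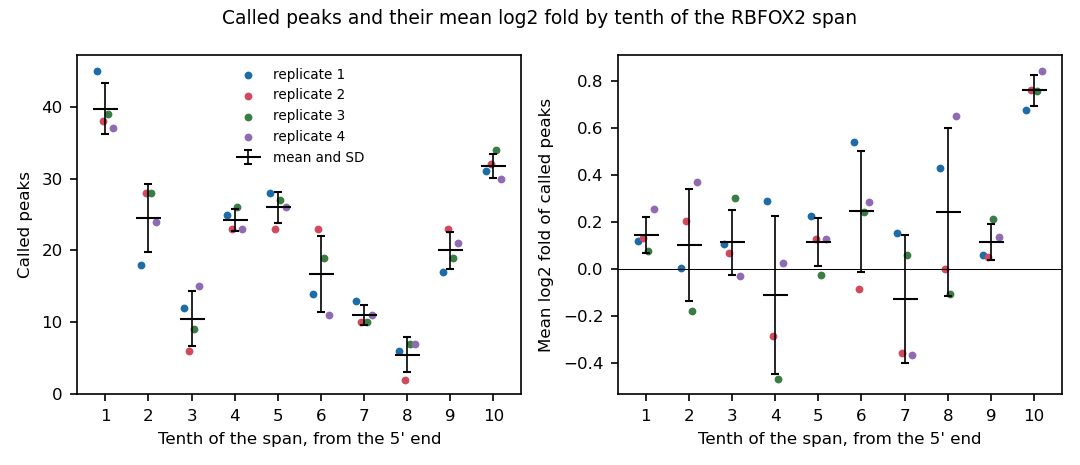
Number of called peaks (left) and their mean log2 fold of IP over input (right) in 10 bins of equal length along RBFOX2, counted from the 5′ end. Points are the 4 replicates, and bars show the mean with its SD. Called peaks are most numerous at both ends of the gene, and the mean fold of the last bin, 0.76, stands above the others.

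The other genes of the family had few called peaks or none. RBFOX1, which is expressed mainly in neurons, heart and muscle, had 0 called peaks in all 4 lists. RBFOX3, known in neurons as NeuN, had 19, 18, 30 and 28 called peaks, 0 enriched peaks and 0 recurrent regions. Per kb of span, RBFOX2 had 0.724 called peaks and RBFOX3 0.0412. Less RNA of a gene and less binding to it cannot be told apart by the number of called peaks.

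RBFOX proteins work within a large assembly of splicing regulators (LASR), and the genes of 7 of its proteins were set beside RBFOX2. Their called peaks numbered between 9.25 (ILF2) and 71.25 (HNRNPC) per list, or 0.821 (HNRNPM) to 4.32 (DDX5) per kb, so each was denser in peaks than RBFOX2. Their spans were much shorter, from 8613 nt (DDX5) to 60296 nt (HNRNPC) against 290089 nt. The density was not adjusted for span length or for the amount of RNA. Enriched peaks were found in 2 of the 7, with 2 over the 4 lists in HNRNPH1 and 1 in DDX5, and none of the 7 held a region enriched in at least 3 lists. Of their 100 recurrent regions, limma called 10 higher (10%, against 21.1% over all regions) and 9 lower (9%, against 1.81%). The higher regions lay in HNRNPM (5), HNRNPH1 (3), ILF2 (1) and MATR3 (1), and the lower ones in HNRNPC (6) and MATR3 (3).

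Genes with as many called peaks differed widely from each other. Among the 500 gene spans with called peaks and a length between 232 and 363 kb, the 3 closest to RBFOX2 in mean number of called peaks were MICAL3 (208.5), EEFSEC (207.75) and EFNA5 (212.75), with an absolute log2 ratio to the 210.0 of RBFOX2 of 0.01, 0.02 and 0.02. MICAL3, an actin-regulating monooxygenase gene on the same chromosome and strand, had 7, 8, 8 and 6 enriched peaks. EFNA5, the gene of ephrin-A5, had 2, 3, 4 and 5. EEFSEC, the gene of the elongation factor for selenocysteine, had 0 in every list. With 2, 1, 2 and 1, RBFOX2 lay between EEFSEC and EFNA5, and its values overlapped those of EFNA5 at 2.

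A wider set was taken by the number of called peaks alone. Of 70 other protein-coding spans with a mean of 168 to 262.5 called peaks per list, 15 (21.4%) held a region enriched in at least 3 lists, as RBFOX2 did, and 13 held one enriched in all 4, as it did not. A recurrent region with a mean log2 fold above 3.78 was found in 13 of the 70 spans, and the median of their highest means was 2.61. Over the 4 lists, 0.714% of RBFOX2 peaks were enriched. The median of this share over the 70 spans was 0, and 13 spans had a higher one. Limma called a median of 3.5 regions higher in these spans (range 0 to 115), against 10 on RBFOX2. Recurrent regions had a median of 25, against 45 on RBFOX2.

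**Figure D5:**
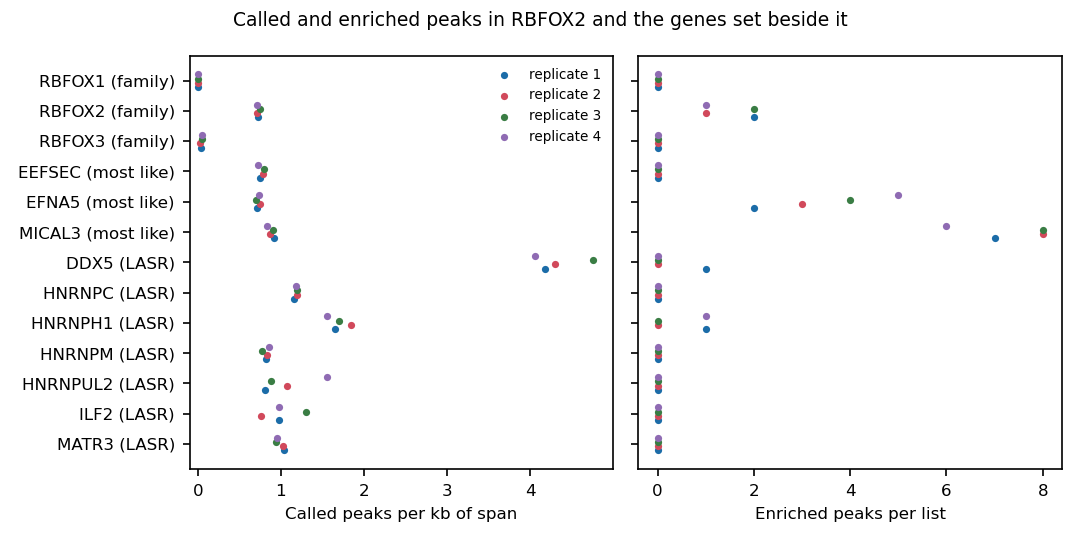
Called peaks per kb of span (left) and enriched peaks (right) in each of the 4 lists (points) for the RBFOX family, the 3 genes most like RBFOX2 in number of called peaks and the 7 LASR genes. RBFOX2 has 1 or 2 enriched peaks in every list, RBFOX1 has no called peak, and MICAL3 has 6 to 8 enriched peaks.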

How the data were processed

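RBFOX2 eCLIP peak lists of HEK293T cells were used, 1 per IP replicate against its own input. Per the submitters' processing notes, UMI-tools 1.1.1, cutadapt 3.2 and STAR 2.7.7a were used, with the builds hg38 and GRCh38.p13. The peak caller, its test and the scaling are not given in the sources used here. The deposited lists have no header. The deposited −log10 p (0 to 400) and log2 fold were recognised from their values. Coordinates are 1-based.

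Gene spans came from a RefSeq gene table (GRCh38.p14), exons were not used here, and the strand used for other genes was that with more called peaks. For the share of peaks on the strand of their gene, strands came from the RefSeq promoter table. Called peaks of the 4 lists on one strand were merged into regions by an overlap of at least 1 nt. Regions with a peak in every list were tested with limma 3.58.1 in R 4.3.3 (intercept only, two-sided, Benjamini-Hochberg over 49493 regions), and the scripts were tested on simulated data. Python 3.11.15, numpy 2.4.6, pandas 2.3.3 and scipy 1.17.1 were used. Named were regions with an enriched peak, the 10 highest and 5 lowest means, all limma calls, the family and LASR lists and the 3 most similar spans. One gene of the LASR list is not reported here, and the LASR counts leave it out. Members and lists were chosen with earlier results of these data known. The cluster was delimited after seeing the data, from the recurrent regions within 1000 nt of an enriched one.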

Additional observations from a re-analysis of the deposited data

Results flagged for a closer look

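Of 48 groups of 4 values examined, 3 had 1 replicate far from the other 3. Folds here move in steps, so near-ties between 3 lists can set the other replicate apart. No rate expected by chance is therefore given. In the cluster region from 35755865, replicate 2 had a log2 fold of 2.81 against 1.58 to 1.74 in the others. In the region from 35917637, replicate 4 had a log2 fold of 1.00 while the other 3 lay at −1.0. In the region from 35749761, replicate 2 had 1.22 and the others 1.00.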

How the results depend on the processing

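Enriched peaks per list numbered 1.5, and 0.5 with a −log10 p of at least 5 or 3 with no limit on p. The share of enriched peaks relative to all other peaks (−0.108 percentage points) turned to 0.0300 with no limit on p, and was −0.400 with a log2 fold of at least 1. The mean fold relative to all other peaks (0.02) turned to −0.14 against minus-strand peaks of chromosome 22 and to −0.0573 without the cluster, an alternative added after seeing the data. It lay between −0.00534 and 0.0399 with 1 replicate left out. The 10 limma calls fell to 2 against a log2 fold of 1, to 2 of 2 tested when regions needed a −log10 p of 3 or more in some list (a filter that selects high folds, with 99.5% of such regions called in the series), and to between 0 and 1 with 1 replicate left out, where fewer degrees of freedom remain. With a trend 9 calls were made. The 45 recurrent regions fell to 19 peaks of replicate 1 with a mutual overlap of at least 50%. No paired analysis was possible because every fold in the lists already combines an IP with the input of its number. Read counts were not used here, so the precision of a single fold is unknown.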
